A study of Drosophila melanogaster with 2 samples.

Results

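Binding of the protein ATbp in Drosophila melanogaster embryos was examined where its binding sites lie close together on the chromosome. The sites are 1909 clustered summits out of 5904 distinct summits, or 32.3%, and they were chosen by position alone. A summit is the base at which a peak of the chromatin immunoprecipitation signal is highest. It was read from the peaks that passed the authors' irreproducible discovery rate (IDR) step, which is built to select reproducible peaks. The IDR list held 5921 peaks on the genome build dm6, of which 17 repeated the interval of a stronger peak and were dropped. A summit was kept when at least 2 others lay within 5000 bp of it, and kept summits within 5000 bp of each other were joined. This gave 520 clusters. The closeness of the summits is therefore a choice and not a finding.

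Per the labels, the 2 libraries are biological replicates 1 and 2 of 1 transgenic line that stably expressed ATbp with green fluorescent protein (GFP) fused to its C-terminal end. Chromatin came from whole embryos of pooled sexes aged 0 to 14 h, was sonicated to fragments of 200 to 800 bp, and was immunoprecipitated with an antibody against GFP. The labels give no second genotype, treatment or time, so there is 1 group and no contrast between groups. The labels do not give the promoter that drives the tagged protein. Whole embryos of this age range hold every embryonic tissue, so a cluster can gather sites that were bound in different cells or at different times. No control library was analysed here.

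The name of ATbp, a protein with zinc fingers, refers to DNA rich in A and T. Transcription factors often have several binding sites along 1 gene, and genes that direct development tend to be long, with several enhancers spread over their introns and flanks. An enhancer is a stretch of DNA that raises transcription of a gene from a distance. A run of neighbouring peaks can mark several such elements or 1 broad element that the peak caller divides.

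The cluster around the strongest summit of the IDR list is shown whole, because its 4 summits span the range from rank 1 to rank 5275 within 4.51 kb. It lies on arm 2L beside the noncoding genes lncRNA:CR31840 and lncRNA:CR45352. Its summits had signal values of 268.2 at position 14020996, 727.5 at 14022248, 4854.3 at 14024074 and 141.2 at 14025503. The strongest stood 25 bp from the transcription start site (TSS) of lncRNA:CR31840 and ranked 1 in replicate 1 and 2 in replicate 2. Its neighbour at 14022248 stood 215 bp from a TSS and ranked 481 and 338. The outer members were intergenic and ranked 2215 and 2312, and 4060 and 7182. Each line gives the summit with 50 bp on either side, on the plus strand of dm6, read from the RefSeq assembly of the same release, with capitals for unbroken runs of at least 8 A or T bases.
lncRNA:CR31840 cluster, chr2L:14020946-14021046, intergenic: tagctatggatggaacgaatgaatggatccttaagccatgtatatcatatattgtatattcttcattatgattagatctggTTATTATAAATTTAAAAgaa
lncRNA:CR31840 cluster, chr2L:14022198-14022298, promoter of lncRNA:CR45352: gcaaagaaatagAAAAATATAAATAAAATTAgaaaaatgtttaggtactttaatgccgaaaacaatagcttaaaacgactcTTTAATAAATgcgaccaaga
lncRNA:CR31840 cluster, chr2L:14024024-14024124, promoter of lncRNA:CR31840: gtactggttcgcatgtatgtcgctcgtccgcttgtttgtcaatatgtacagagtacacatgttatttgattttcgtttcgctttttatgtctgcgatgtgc
lncRNA:CR31840 cluster, chr2L:14025453-14025553, intergenic: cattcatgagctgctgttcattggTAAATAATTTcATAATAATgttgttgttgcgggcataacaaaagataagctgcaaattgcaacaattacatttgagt

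The window at the strongest summit was the poorest of the 4 in A+T, at 58.4%, and held no run of 8. The other windows held 73.3%, 74.3% and 67.3% A+T, in the order of their positions, with longest runs of 17, 19 and 10 bases. Within this cluster the order of signal therefore did not follow A+T content.

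The strongest summits of 7 further clusters are shown as examples from loci that recur in the results that follow. Not every cluster that recurs is shown. They lie in introns of ush, Tlk, Raf and CHES-1-like, in an exon of the noncoding gene that spans the bantam microRNA gene, and in intergenic DNA beside chinmo and between hng3 and CG13898.
ush, chr2L:481015-481115, intron: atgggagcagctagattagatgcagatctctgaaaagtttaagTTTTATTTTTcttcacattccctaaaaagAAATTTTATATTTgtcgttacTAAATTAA
Tlk, chrX:3742184-3742284, intron: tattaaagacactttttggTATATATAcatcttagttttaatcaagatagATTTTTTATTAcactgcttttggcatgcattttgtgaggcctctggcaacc
Raf, chrX:2297671-2297771, intron: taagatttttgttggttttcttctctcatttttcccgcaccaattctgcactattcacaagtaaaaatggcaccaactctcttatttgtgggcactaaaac
CHES-1-like, chrX:7706939-7707039, intron: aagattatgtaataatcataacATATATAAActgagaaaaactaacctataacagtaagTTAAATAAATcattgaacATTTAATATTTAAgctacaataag
bantam, chr3L:634800-634900, exon of lncRNA:CR43334: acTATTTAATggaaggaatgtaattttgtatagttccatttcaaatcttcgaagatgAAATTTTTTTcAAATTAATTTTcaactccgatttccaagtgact
chinmo side, chr2L:1648748-1648848, intergenic: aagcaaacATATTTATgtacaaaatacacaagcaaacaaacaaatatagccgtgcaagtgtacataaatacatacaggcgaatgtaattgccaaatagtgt
hng3 to CG13898, chr3L:781312-781412, intergenic: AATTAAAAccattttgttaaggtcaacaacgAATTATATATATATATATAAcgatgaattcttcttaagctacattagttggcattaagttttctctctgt

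These windows ranged from 63.4% A+T at Raf, which held no run of 8, to 80.2% at CHES-1-like, which held 3 runs. The range is that of the examples alone. Among strongest summits not shown, the window in CG5953 had 54.5% A+T, the one in crp 69.3% and the one in drongo 68.3%. The drongo window held no run of 8. The longest run shown was the 20 bases between hng3 and CG13898. Windows of members within 1 cluster were not copies of each other. Among 3714 pairs of members of 1 cluster whose windows did not overlap, 0 shared a stretch of 20 bases on either strand.

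Most clusters were small. Of the 520 clusters, 416 held at least 3 members and 1777 of the 1909 clustered summits. The other 104 clusters, with 132 members, held 1 or 2 members each, because the neighbours that admitted those members did not themselves have 2 others within 5000 bp. Among the larger clusters 194 held 3 members, 110 held 4, 100 held 5 to 9 and 12 held at least 10. The 12 with the most members held 142 clustered summits. From the first to the last summit the 416 clusters spanned a median of 4.52 kb, with a range of 0.450 kb to 31.6 kb. Together they covered 2326.8 kb, or 1.69% of the chromosomes.

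**Figure D1:**
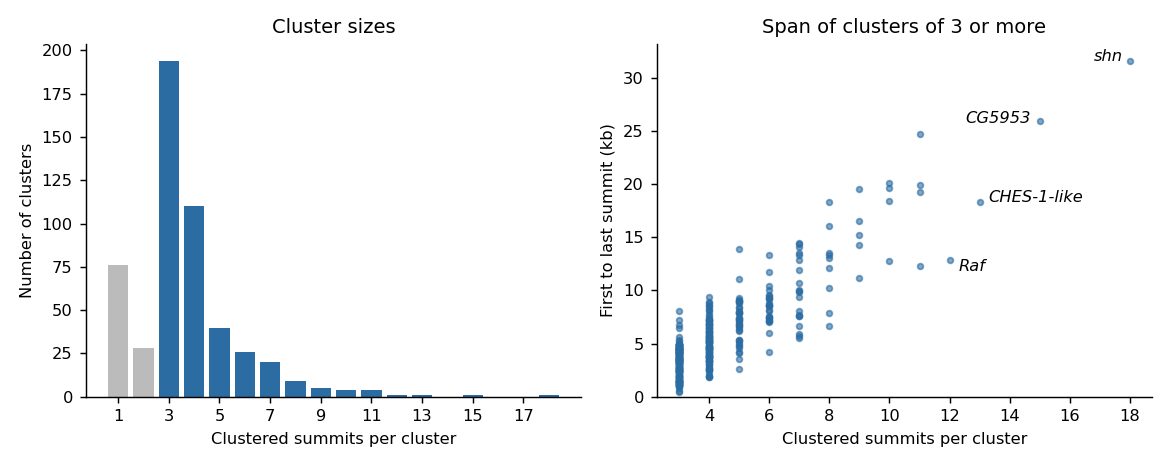
Left, number of clusters (y axis) by the number of clustered summits in each (x axis), with grey bars for clusters of 1 or 2 and blue bars for 3 or more. Right, distance from the first to the last summit in kb (y axis) by the number of clustered summits (x axis), 1 point for each of the 416 clusters of 3 or more. The cluster in shn stands apart at 18 summits and 31.6 kb, and the cluster at Raf packs 12 summits into 12.8 kb.

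The 1389 gaps between neighbours within a cluster had a median of 1429 bp, with quartiles of 805 and 2561 bp. Of these gaps, 33.8% were 1000 bp or less and 363 exceeded 2500 bp. A separate group of very short gaps was present. The commonest peak width in the list was 404 bp, and 160 neighbouring pairs in 136 clusters lay closer than that width, so their intervals could overlap. No gap was under 199 bp and 104 of the 160 pairs lay at 210 bp or less. In these pairs the stronger summits had a median signal of 323.1 and the weaker ones 173.5. The weaker summit had less A+T than the stronger in 105 pairs and more in 53, with means of 59.5% ± 9.90 and 65.9% ± 9.19 (SD, n = 160 pairs). Among summits outside the clusters, 83 such pairs had means of 64.6% ± 9.29 for the weaker and 66.7% ± 10.3 for the stronger. Whether a close pair stands for separate binding sites was not tested. When the weaker summit of overlapping peaks was dropped, 1660 clustered summits in 481 clusters remained under the same rule, 370 of them with at least 3 members, and the largest then held 14.

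The rule used a limit of 5000 bp. Just inside were a summit in ftz-f1 on 3L (18789760, signal 373.6), whose nearest neighbour but 1 lay at 4999 bp, and summits in Hers (X, 19884607) and Gmap (X, 15495799), both at 4996 bp. Just outside were summits at Mrp5 (3R, 19875644) and egl (2R, 23745443), both at 5002 bp, and in goe (X, 16747014) at 5004 bp.

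The cluster with the most members lay in shn, which encodes a large zinc finger protein that acts in the Dpp signalling pathway. Its 18 summits on 2R ran from 11175566 to 11207167, a span of 31.6 kb inside a gene of 58.3 kb, and all 18 lay in introns. None was within 500 bp of a TSS. Signal values lay between 134.4 and 694.1 around a median of 198.8, and the strongest ranked 436 in the list. This summit, at 11202828, ranked 312 in replicate 1 and 798 in replicate 2. The next, at 11184566 with a signal of 673.7, ranked 441 and 511. Another, at 11194897 with 609.2, ranked 667 and 503. These 3 stood above the rest of the cluster in both replicates. A further summit at 11197056 had a signal of 407.6 and ranked 1312 and 1155. A relaxed peak lay within 100 bp in both replicates for 16 of the 18. The other 2, at 11195097 and 11195882, had one in replicate 2 and none in replicate 1. A relaxed peak is one from the longer list that each replicate had before the IDR step. A+T content ranged from 35.6% to 76.2% across the members. The 35.6% belonged to the summit at 11195097, which stood 200 bp from a stronger one at 74.3%.

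Raf held the densest of the clusters on X with at least 10 members. Raf encodes the protein kinase that carries receptor tyrosine kinase signals from Ras to the MAP kinase cascade. Its 12 summits spanned 12.8 kb, from 2293728 to 2306571. All 12 had a relaxed peak in both replicates. The first stood 317 bp from the TSS of the neighbouring gene CG2865 and had a signal of 758.7. The strongest, at 2297721 in a Raf intron, had a signal of 1817.2 and ranked 42 in replicate 1 and 38 in replicate 2. The second, at 2300692, also in an intron, had 1269.0 and ranked 131 and 95. The summit 235 bp from the Raf TSS was among the weakest, at 146.3, with ranks of 4853 and 5698. Within Raf the signal therefore lay mainly inside the gene and not at its start.

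CHES-1-like, which encodes a forkhead transcription factor, held all 13 summits of its cluster (X, 7690841 to 7709166, 18.3 kb). Of these, 10 lay in introns and 3 within 500 bp of a TSS. The strongest had a signal of 1014.9, lay in an intron 786 bp from a TSS, and ranked 208 and 190 in replicates 1 and 2. The next, at 7698417 with 822.4, ranked 451 and 245. The weakest, at 7692209 with 141.5, ranked 6684 in replicate 1 and had no peak in replicate 2. The members averaged 68.3% A+T.

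Tlk, which encodes the Tousled-like kinase of chromatin assembly, held a cluster of 10 intronic summits over 12.8 kb (X, 3739344 to 3752113). One summit dominated it. The summit at 3742234 had a signal of 1839.3 and ranked 43 and 34, while the next, at 3750694, had 509.5 and ranked 1222 and 561. The median of the 10 was 205.2. The whole gene, 69.8 kb long, held 13 clustered summits.

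In ush, which encodes a zinc finger cofactor of GATA factors, 7 summits ran from 479029 to 493424 on 2L. The first 2 summits also lay in or at cbt, a zinc finger gene on the other strand that lies within ush, and cannot be assigned to either gene. The strongest, at 481065 in an intron, had a signal of 3217.2, the 6th highest of the list, and ranked 7 in both replicates. A second intronic summit at 485871 had 1656.1 and ranked 26 and 119. Another at 480054, 366 bp from a TSS, had 1049.0 and ranked 187 and 176. The other 4 had values of 137.4 to 230.9, far below these 3. The whole gene, at 64.3 kb, held 15 clustered summits out of 17 in the IDR list.

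In the clusters of 3 further strong summits, at sbb, px and CG1888, 1 summit stood far above the rest. In sbb, which encodes a nuclear corepressor, 9 intronic summits on 2R included 18337177, at 2750.0 and 20119 bp from the nearest TSS. Its ranks were 3 and 25 in the replicates. The next in sbb had 913.1 and the weakest 141.6. In px, a wing vein patterning gene, 4 summits on 2R held 3270.3 at 22514298, 199 bp from a TSS, with ranks of 6 and 4, and the other 3 held 226.3 to 545.7. At CG1888 on 2R, 8 summits included 9547201 with 2318.7, 243 bp from a TSS and ranked 20 and 13, while the next had 291.6.

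**Figure D2:**
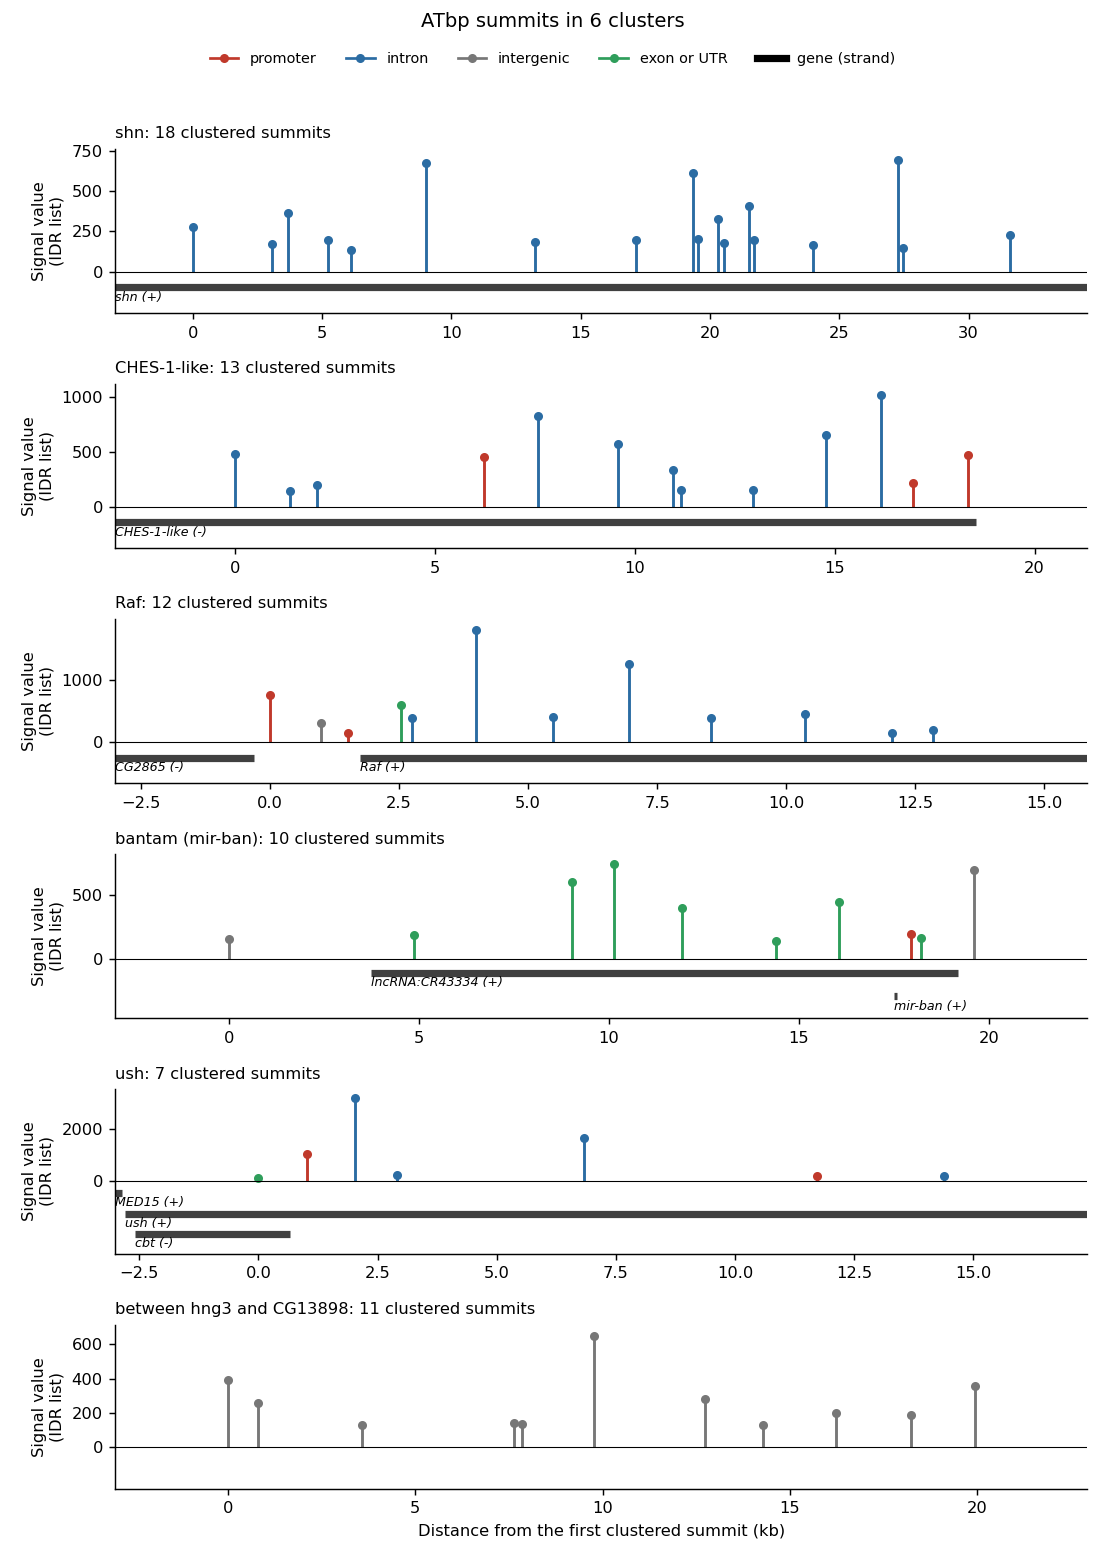
Clustered summits in 6 loci, with the authors' signal value (y axis, 1 scale per panel) against distance from the first clustered summit in kb (x axis), coloured by annotation, and genes drawn as black bars with their strand. In ush the summit of 3217.2 rises far above the others, whereas the 18 summits in shn stay at 694.1 or below.

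CG5953 on 2L anchored the cluster that was second in size, with 15 summits over 25.9 kb (16520102 to 16546026). Of these, 8 lay in or at CG5953, 4 were intergenic, and 1 lay in mtgo. The strongest, at 16521535 in a CG5953 intron, had a signal of 1102.8 and ranked 99 in replicate 1 and 299 in replicate 2. The next, at 16533242, 365 bp from a TSS, had 1025.4 and ranked 288 and 151. The replicates thus placed these summits in opposite order.

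Pdp1, which encodes a bZIP transcription factor of growth and the circadian clock, held 10 of 11 summits over 19.2 kb on 3L (7851049 to 7870275). Its signals were low, from 132.2 to 548.4, and 8 of 11 had a relaxed peak in both replicates. The 3 without one in replicate 2 had 153.7, 160.5 and 165.0. crp, which encodes a bHLH transcription factor, held 10 summits over 18.4 kb on 2L, with 159.3 to 752.4, and averaged 58.7% A+T. The strongest, at 16279936, ranked 494 and 320. drongo, on the same arm, led a cluster of 10 over 20.1 kb, of which 6 lay in or at drongo and 2 in or at CG13949. Its signals ran from 165.4 to 524.1 and all 10 had a relaxed peak in both replicates. On 2R the overlapping genes CG6191 and CG45088 shared 5 of 11 summits over 12.3 kb, so those 5 cannot be assigned to either gene. The strongest there, at 13584840, had 567.4 and ranked 446 and 1037.

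The bantam locus held a large cluster outside protein-coding genes. The microRNA bantam promotes growth and blocks cell death in flies. The cluster held 10 summits over 19.6 kb on 3L (624712 to 644307), of which 8 lay in or at lncRNA:CR43334, a noncoding gene that spans mir-ban. All 10 had a relaxed peak in both replicates. The strongest, at 634850 in an exon of lncRNA:CR43334, had a signal of 748.6 and ranked 444 and 349. The next, at 644307 in intergenic DNA, had 701.1 and ranked 463 and 424. Another, at 633737, had 602.8 and ranked 617 and 546. The one summit within 500 bp of a microRNA start, at 642659, was weak, with 198.0 and ranks of 3230 and 4328.

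Beside chinmo, which encodes a BTB zinc finger protein of neuronal temporal identity, 11 summits lay on 2L over 24.7 kb (1624954 to 1649657). None lay in chinmo itself. Of the 11, 9 were intergenic, and the last stood 1601 bp from the chinmo TSS. The strongest, at 1648798, had a signal of 1506.7 and ranked 31 in replicate 1 and 146 in replicate 2. The next 2, at 1643474 and 1638789, had 1144.9 and 1059.0 and ranked 165 and 140, and 252 and 132. All 11 had a relaxed peak in both replicates.

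Of the clusters of at least 3 members, 22 had intergenic summits alone. In 1 of these 22, on 2L, the span held the TSS of a protein-coding gene, Rh5, between its summits. The one with the most members held 11 summits over 19.9 kb on 3L, inside the 47.9 kb between hng3 and CG13898. Its first summit was 16.1 kb from hng3 and its last 11.9 kb from CG13898. Signals ran from 130.1 to 650.2, the strongest at 781362 ranked 567 and 474, and 10 of 11 had a relaxed peak in both replicates. A second cluster of 4 lay in the same intergenic stretch. Another, with 8 summits over 6.65 kb, lay in the 75 kb between NijA and CG43245 on 3L, with a strongest signal of 546.9. The highest signal in such a cluster was 1993.0, ranked 36 and 23, in a cluster of 3 on 3R that ended 1.13 kb from tara. On 2L a cluster of 4 lay 6.53 kb from noc, a zinc finger gene, with a strongest signal of 1119.7 that ranked 117 and 235. These last 4 clusters were chosen after their values were seen.

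Clustered summits lay more often in introns and less often at promoters than the others. Promoter here means within 500 bp of a TSS, and a summit farther away was classed by the part of a gene that held it. Of the 1909 clustered summits, 1037 or 54.3% were intronic (Wilson 95% interval 52.1% to 56.5%), against 43.0% of the 3995 others (41.4% to 44.5%). Promoters held 529, or 27.7% (25.7% to 29.8%), against 1517, or 38% (36.5% to 39.5%). The intergenic shares were 14.7% and 15.9%. Coding sequence held 3 clustered summits, or 0.157%, against 0.426% of the others. The median distance to a TSS was 1511 bp for clustered summits and 1047 bp for the others. The intervals cover counting error alone and treat summits as independent, although neighbours in a cluster share a locus, so they are too narrow.

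**Figure D3:**
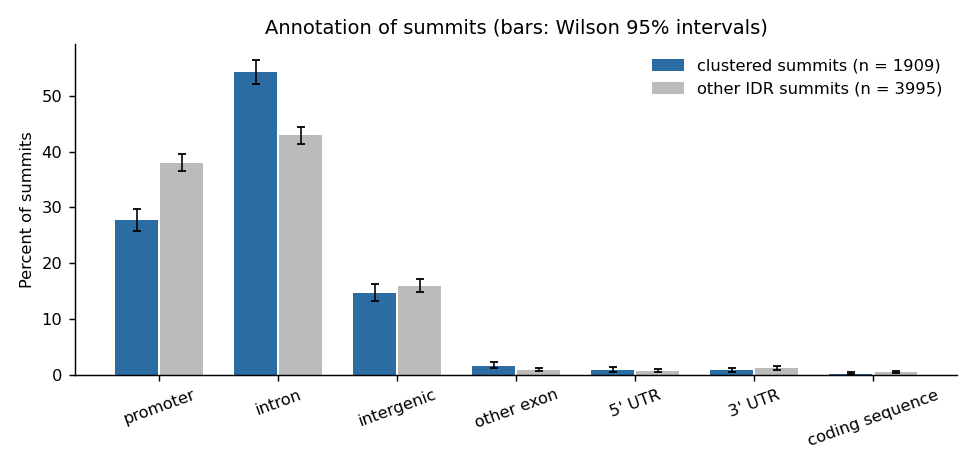
Percent of summits (y axis) in each annotation class (x axis) for clustered summits in blue and other IDR summits in grey, with Wilson 95% intervals. Introns held 54.3% of clustered summits and 43.0% of the others, and promoters 27.7% and 38%.

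Within the 416 clusters of at least 3, 95 consisted of intron summits alone, 22 of intergenic summits alone and 23 of promoter summits alone, and 133 had no promoter member. In 172 of them the span held no TSS of a protein-coding gene. In 243 clusters, or 58.4%, every member lay in or at 1 protein-coding gene. The strongest member was at a promoter in 137 clusters, or 32.9%, and in an intron in 213, or 51.2%. Of the 1361 other members of these clusters, 26.5% were at promoters. The strongest member had a median of 1.88 times the signal of its cluster's median member, with a range of 1.00 to 13.9. In 196 clusters it reached at least 2 times that median.

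Clustered summits were spread over the large chromosome arms. The clustered share of all distinct summits was 34.9% on 2L, 36.8% on 2R, 32.7% on 3L, 28.8% on 3R and 29.9% on X. No test was made between arms. On chromosome 4, 0 of 14 summits were clustered, and the Wilson interval reaches 21.5%. Clusters of at least 3 numbered 3.49 per Mb on 2L and 2.68 per Mb on X.

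The median signal of clustered summits was 226.6, with a range of 128.5 to 4854.3, against 217.4 for the others. Of the 500 strongest summits 39.8% were clustered, with an interval of 35.6% to 44.2%. The share was 33.4% at ranks 501 to 1000, 30.8% at 1001 to 2000, 32.7% at 2001 to 4000 and 30.5% at 4001 to 5904. The values are the authors' own and their scale is not given in the sources used here, so they serve to rank peaks within 1 list.

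Clustered summits recurred between the replicates about as often as the others. A relaxed peak lay within 100 bp in both replicates for 1758, or 92.1%, against 92.9% of the others. It was present in replicate 1 alone for 86, in replicate 2 alone for 64 and in neither for 1. Against the 5904 strongest peaks of each replicate, 83.6% were present in replicate 1, 83.1% in replicate 2 and 69.4% in both, and the last share was also 69.4% for the others. Spearman's rho between the ranks in the replicates was 0.706 over 1758 clustered summits and 0.696 over 3710 others. These are descriptions across peaks of the same 2 libraries. The IDR step is built to select reproducible peaks, so their recurrence can be built in.

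**Figure D4:**
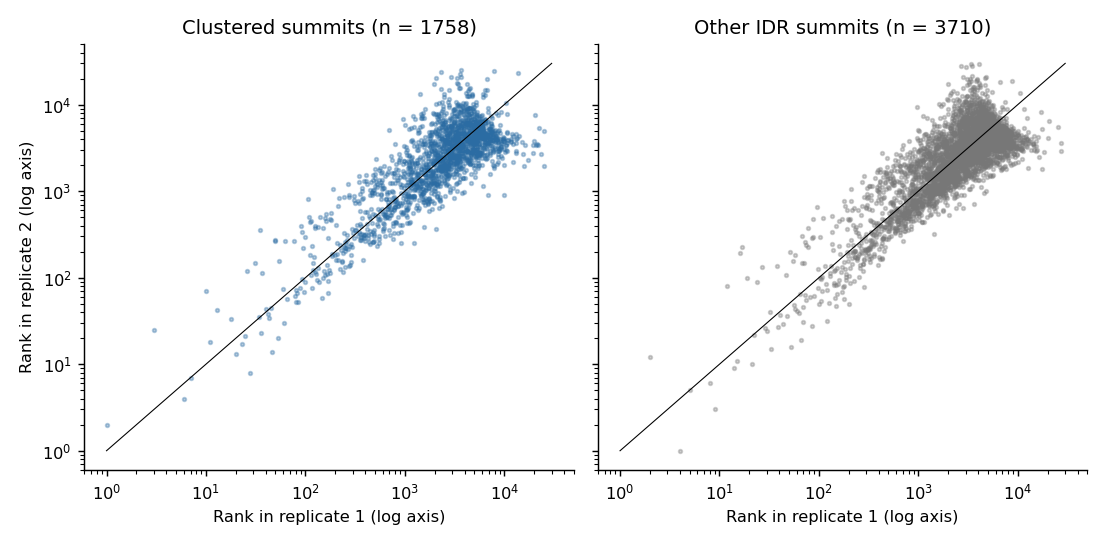
Rank of each summit in replicate 1 (x axis, log) against its rank in replicate 2 (y axis, log), for the 1758 clustered summits and the 3710 others found in both replicates, with the line of equal ranks. Both clouds follow the line, with Spearman's rho of 0.706 and 0.696, and widen at the weaker ranks.

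The clusters themselves were rebuilt from each replicate by applying the rule to its 5904 strongest distinct peaks. Replicate 1 gave 1972 clustered summits in 557 clusters, 431 of them with at least 3 members. Replicate 2 gave 1940 in 547 clusters, 443 of them with at least 3. Of the 1909 clustered summits, 1393 or 73.0% were clustered again in replicate 1 and 1387 or 72.7% in replicate 2. Of the 416 clusters of at least 3 members, 294 met a cluster of each replicate, 51 of replicate 1 alone, 54 of replicate 2 alone and 17 of neither. In 291 of the 416 every member had a relaxed peak in both replicates, and in 98 every member was among the strongest of both. The 416 spans held 1777 clustered summits and 2743 relaxed pooled peaks, a count that includes the peaks at the clustered summits themselves.

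Clustered summits lay in or at few genes. A gene was counted when a clustered summit was in its body or within 500 bp of a TSS. Where genes overlap or lie close together, 1 summit can count for several of them. This held for 626 of 13968 protein-coding genes, or 4.48%, whereas 21.3% had a summit of the IDR list of any kind. Over all 18277 annotated genes the share was 4.09%. The share rose with gene length, to 233 of 1020 genes of at least 20 kb, or 22.8%, against 3.04% of shorter genes. Genes with a clustered summit had a median length of 13.4 kb, those with at least 3 had 24.5 kb, those with unclustered summits alone 5.01 kb, and all protein-coding genes 2.16 kb. A longer gene has more room for summits, so every count for a gene list has to be read against both shares. Of the 626 genes, 223 held 1 clustered summit, 105 held 2 and 298 held at least 3. A clustered summit was at a TSS in 400 of them. In or at no gene were 280 clustered summits.

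At least 10 clustered summits lay in each of 12 protein-coding genes. CG1677 on X, at 124.7 kb, held 18 in 3 clusters, with a strongest signal of 1425.9. All 18 also lay in or at lncRNA:CR44357, and 2 in or at CBP, so they cannot be assigned to CG1677 alone. In addition, 1 of the 3 clusters, with 8 summits over 7.90 kb, lay 569 bp from the TSS of brk. That is beyond the 500 bp limit, so its summits were not counted for brk. shn held 18 and ush 15. rdx, which encodes an adaptor that targets the Hedgehog effector Ci for degradation, held 14 over 65.0 kb, 3 of them at a TSS. Tlk, Raf and CHES-1-like held 13 each, px 11, and sbb, crp, Pdp1 and SNF4Agamma 10 each. SNF4Agamma encodes a subunit of the energy sensor AMP-activated kinase. These genes were 24.2 to 124.7 kb long, so all 12 fell in the class of which 22.8% had a clustered summit.

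Among the gene lists, transcriptional regulators with BTB or other zinc finger domains had the highest share. Of 28 such genes 13, or 46.4%, had a clustered summit, led by shn with 18 and ush with 15. Of the 17 that were at least 20 kb long 10 had one, and of the 11 shorter ones 3, against backgrounds of 22.8% and 3.04%. Both shn and ush stand in other lists too, and psq and lola stand in the trithorax list as well. The lists were written with earlier results of these data known. The trithorax group, which keeps developmental genes active, had 5 of 15, or 33.3%. These were Trl, kis and psq with 5 summits each, trx with 3 and lola with 2. Of the 7 trithorax genes of at least 20 kb 4 had a clustered summit, and of the 8 shorter ones 1. Trl encodes the GAGA factor, kis a chromatin remodeller and trx a histone methyltransferase. The Polycomb group, which keeps genes silent, had 3 of 19, or 15.8%, namely ph-p with 5, and ph-d and Psc with 2 each. All 3 were among the 18 genes of that list under 20 kb. ph-p and ph-d are neighbouring near-copies on X, and how their reads were placed was not tested.

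Signalling genes followed. Of 26 genes of EGF and FGF receptor signalling 8, or 30.8%, had a clustered summit. Star (S), needed for release of the EGF receptor ligands, had 6 over 28.1 kb, and aop, an ETS repressor at the end of the pathway, had 5. The ligand gene spi had 4, all at a TSS, in a gene of 9.42 kb. The ligand genes Krn and bnl had 3 each, the ETS activator gene pnt and the gene edl 4 each, and the inhibitor gene aos 1. Krn lies within Ndfip and aos within CG33158, and their summits were counted for those genes too. The backgrounds for long and shorter genes are again 22.8% and 3.04%. Long genes made up 9 of the 26, and 4 of those 9 and 4 of the 17 shorter ones had a clustered summit. Among 27 dorsoventral and TGF-beta genes 5 did, or 18.5%: shn and ush as above, sog with 6, tkv with 5 and Dad with 3. Of the 7 long genes of this list 4 did, and of the 20 shorter ones 1. sog encodes an extracellular inhibitor of Dpp, tkv its receptor and Dad an inhibitor inside the cell. Segment polarity genes gave 3 of 22, or 13.6%, led by the Hedgehog receptor gene ptc with 4 and the Wnt antagonist gene nkd with 3. These 3 comprised 2 of 6 long genes and 1 of 16 shorter ones. The Notch list gave 3 of 21, or 14.3%: the coactivator gene mam with 5, edl with 4 and E(spl)m3-HLH with 1. The gene edl is counted in the EGF and FGF list too, so these 2 lists are not separate. Of the 5 long genes of the Notch list 1 had a clustered summit, and of the 16 shorter ones 2.

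Ecdysone response genes and nuclear receptors had 7 of 23, or 30.4%. Ecdysone is the steroid hormone of moulting. Hr3 led with 8 summits, none at a TSS, and a strongest signal of 1825.0, in an interval that also holds CG12912 and CG46321. Hr4 had 6. All 7 genes were among the 17 of at least 20 kb, and none of the 6 shorter ones had a clustered summit. Axon guidance and adhesion genes had 8 of 40, with at most 3 summits a gene, as in caps and Fas3. Of these 40, 26 were long, and 6 of the 26 had a clustered summit, close to the background for such genes.

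Tissue and patterning lists had between 1 and 3 such genes each or none. Their shares are read against 4.48% of all protein-coding genes and 22.8% of long ones. Mesoderm and muscle genes gave 3 of 23, or 13%, with 5 summits each in Mef2, mbc and kirre, and 2 of its 9 long genes had one, near the 22.8% of all such genes. Neural fate genes gave 2 of 25, or 8%, elav and grh, and 1 of its 3 long genes had one. The elav summits also lay in the overlapping gene arg. Homeobox genes outside the Hox clusters gave 2 of 39, or 5.13%, hth with 6 and NK7.1 with 2. Both belong to the 17 long genes of that list. Of 8 Hox genes 1, or 12.5%, had clustered summits, Antp with 3 in 103.0 kb, although 5 had a summit of the IDR list. Antp was 1 of 6 long Hox genes, and its 3 clustered summits also lay in the overlapping gene CG46458. Among 12 maternal and gap genes bcd had 1, which made 8.33% of the list, and 0 of its 2 long genes had one. In the pair-rule list 0 of 10 did, where the interval reaches 27.8%, and 0 had any IDR summit. Of 11 blood cell genes ush was the one with clustered summits, or 9.09%, and it was 1 of 3 long genes there. Junction and polarity genes gave 2 of 22, or 9.09%, cno and crb, although 14 had a summit of the IDR list. Of the 22, 11 were long, and 1 of those 11 had a clustered summit.

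**Figure D5:**
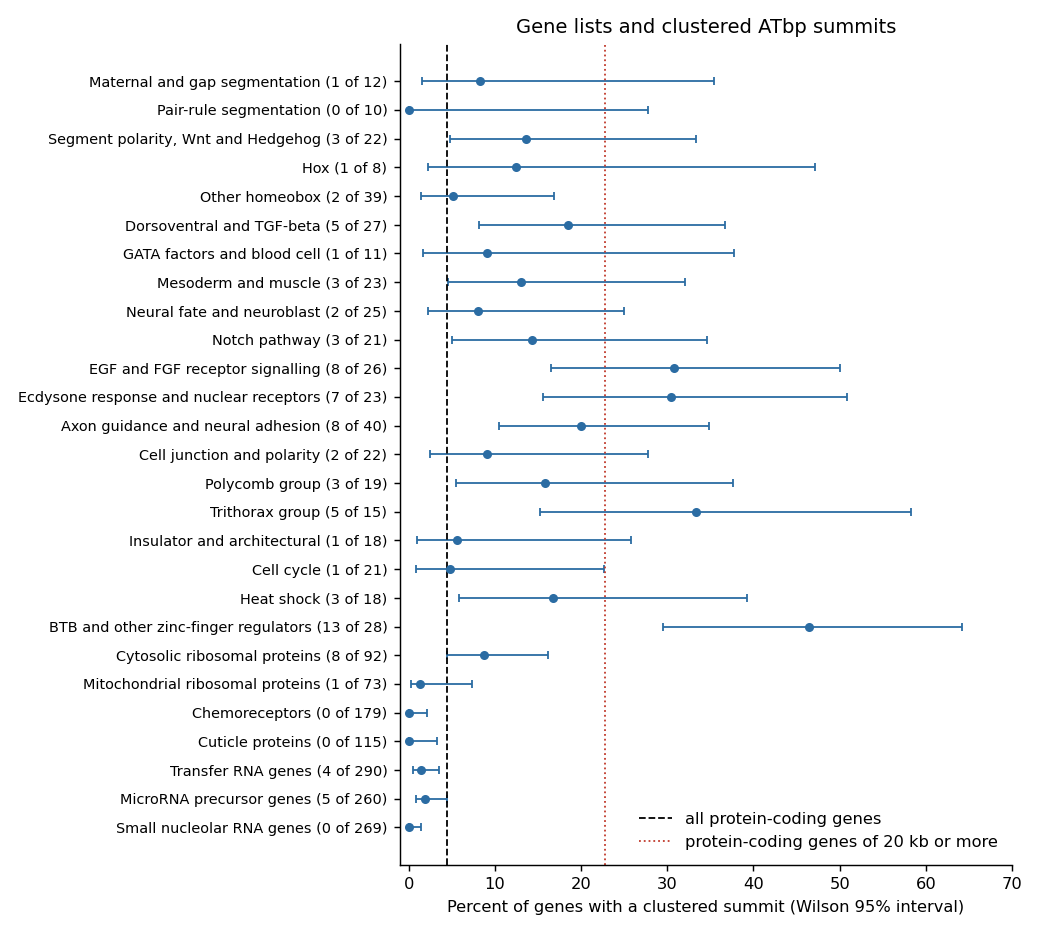
Percent of the genes of each list with a clustered summit (x axis) for 27 lists (y axis, count of genes in parentheses), with Wilson 95% intervals, and the shares over all protein-coding genes (dashed) and those of at least 20 kb (dotted). BTB and other zinc finger regulators stand highest at 46.4%, and pair-rule, chemoreceptor, cuticle and small nucleolar RNA genes stand at 0.

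The remaining lists held mostly short genes, and their shares varied. Protein-coding lists are read against the 3.04% of all protein-coding genes under 20 kb, and noncoding lists against the 4.09% of all annotated genes. Most of those annotated genes, 13968 of 18277, were protein-coding, and so were 626 of the 747 with a clustered summit. The 4.09% is therefore a loose guide for noncoding lists, and a share over noncoding genes alone was not computed. Of 92 cytosolic ribosomal protein genes 61, or 66.3%, had a summit of the IDR list but 8, or 8.70%, a clustered one. RpS23 had 2 and the other 7 had 1 each, all at a TSS. The mitochondrial ribosomal list gave 1 of 73, or 1.37%, mRpS23. Heat shock genes gave 3 of 18, or 16.7%, the neighbours Hsp22, Hsp26 and Hsp67Bc on 3L, which share 1 locus of a few kb. Cell cycle genes gave 1 of 21, or 4.76%, trbl with 3. Insulator genes gave 1 of 18, or 5.56%, Trl, which also stands in the trithorax list. Transfer RNA genes gave 4 of 290, or 1.38%, and microRNA genes 5 of 260, or 1.92%, mir-ban among them. No clustered summit was found in or at 179 chemoreceptor genes, 115 cuticle genes or 269 small nucleolar RNA genes, with intervals that reach 2.10%, 3.23% and 1.41%. Few of these genes had an IDR summit of any kind, namely 0, 2 and 11 in the same order. Of all ncRNA genes 116 of 3289, or 3.53%, had a clustered summit.

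A+T content in the windows of 50 bp on either side of each clustered summit was 64.3% ± 9.21 (SD, n = 1909 summits), and at the others 64.9% ± 9.27 (n = 3995). Within introns it was 64.8% ± 8.49 and 65.2% ± 8.49, and in intergenic DNA 64.1% ± 9.55 and 66.1% ± 8.55. Single summits ranged widely in both sets, and the difference between the means was not tested. Runs of at least 8 A or T bases, marked in the windows above, were found in 70% of clustered summits, 71.5% of the others and 71.0% of all.

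Short motifs were counted on both strands of the same windows. GAGAG, the core of the GAGA factor motif, was in 13% of clustered windows (11.6% to 14.6%), 10.9% of the others (9.96% to 11.9%) and 11.6% of all. ACAGTG was in 7.65%, 6.68% and 7%, CAAACA in 19.1%, 17.9% and 18.3%, and CACACA in 10.6%, 9.36% and 9.77%. CAAACA and CACACA can overlap by their end letters. The intervals of clustered and other windows overlapped for all 4, which is not a test, and no difference in motifs was tested. ACAGTG pointing toward the summit from a zone beside it, one that earlier work on these data had picked out, was found at 9.90% of clustered summits and 10.5% of the others. A match describes letters in a window and not a bound site.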

How the data were processed

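ChIP-seq peak lists of 1 group of 2 replicates were analysed. Per the labels, relaxed lists made as input for IDR were deposited for each replicate and for the pool, and an IDR list for the replicates together, on dm6 and dm3. The signal of a peak is the authors' deposited value and was used within 1 list, to rank and describe. A further deposited column was read from the file format as the −log10 of a q-value and was not used. Which aligner, peak caller and IDR threshold were used is not given in the sources used here. Read counts were not analysed, so depth is unknown, and intervals cover counting error alone.

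Summits were annotated on dm6 with Ensembl release 115 (BDGP 6.54), without transposable elements. Classes were assigned in the order promoter, 5' UTR, coding, intron, 3' UTR, remaining exon, intergenic, and intron means inside a gene but in no exon. A+T content and motifs were read in 101 bp, and ACAGTG facing the summit at 50 to 125 bp from it. Replicate peaks were matched within 100 bp. Python 3.11.15, NumPy 2.4.6, pandas 2.3.3 and SciPy 1.17.1 were used, and the clustering was tested on simulated data. The members, gene lists and motifs were chosen with earlier results of these data known, and a few list symbols were respelled once the annotation was held. No test was made, since the rule used the positions and there is 1 group.

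Named genes hold a member in the 12 clusters with most members or in those with the 5 strongest member summits, or are the 10 protein-coding genes with most members (12 with ties), or up to 2 genes per list. Other list members, the genes at the 5000 bp limit, brk and some intergenic clusters were named after their values were seen. Alternatives changed the neighbour distance, the number of neighbours, the signal, the build, the promoter and matching distances, the window and the replicate used.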

Additional observations from a re-analysis of the deposited data

How the results depend on the processing

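Of 84 alternative values for 8 results, 34 moved and 50 stayed within a tolerance, which was a factor of 1.5 for counts, the Wilson 95% interval for shares, and the SD between the values of each replicate alone for the median gap (24.7 bp) and mean A+T (1.59 points). Mean A+T, reported as 64.3%, ranged from 62.9% to 65.9% over its 10 alternatives. The mean of the other summits was not recomputed under them, so the difference between clustered and other summits was not checked. With neighbours within 2500 bp there were 892 clustered summits in 312 clusters, 312 protein-coding genes, a median gap of 925 bp and 90.0% of summits in both replicates. Within 10000 bp there were 3263 summits and 1236 genes, a gap of 2238 bp, 30.5% at promoters and 51.7% in introns. With at least 3 others there were 953 summits, 259 clusters, 277 genes and a gap of 1190 bp. Among the stronger 2952 summits alone there were 452 clustered ones in 158 clusters, 173 genes, a gap of 1498 bp, 50.7% in introns and 96.9% in both replicates. Fewer summits or a shorter reach lowers these counts by construction. A promoter limit of 250 bp gave 17.5% at promoters and 59.9% in introns, and 1000 bp gave 39.8% and 46.0%. Counting genes by 500 bp around a TSS alone gave 400. Matching replicates within 50 bp gave 76.2% in both, and within 200 bp 97.6%. Keeping the strongest of overlapping peaks, chosen after seeing the data, gave 93.6% and a gap of 1602 bp. With either replicate alone, promoter shares were 27.4% to 30.4%, intron shares 51.9% to 52.3%, shares found in both 84.7% to 89.5% and median gaps 1429 to 1464 bp. No paired analysis was possible because there is 1 group.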
